A study of Homo sapiens with 8 samples.

Results

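The genes described here are the amino acid transporter genes of LY2 breast cancer cells, taken as every row of the deposited gene table whose symbol belongs to 1 of the 7 solute carrier families SLC1, SLC3, SLC6, SLC7, SLC36, SLC38 and SLC43. The table held 60 such rows, and 33 of them, with a value of at least 10 in at least 4 of the 8 libraries, were kept as members. The whole table held 63677 genes, of which 19559 passed the same filter and were tested together. LY2 is an endocrine-resistant line derived from MCF-7, an estrogen receptor positive breast cancer line. The shSRC1 cells carried a stable short hairpin RNA against NCOA1, the gene of the nuclear receptor coactivator SRC-1, and the shNT cells carried a stable non-targeting hairpin. Each group had 4 libraries of poly(A)-selected RNA. Both groups were held under puromycin (500 ng/mL), were grown in charcoal-stripped serum with 1e-08 M 4-hydroxytamoxifen, were deprived of steroids for 72 h and then received 1e-07 M 4-hydroxytamoxifen, the active metabolite of tamoxifen, for 8 h. No group without tamoxifen or with a second hairpin was analysed here, and the labels give neither the number of clones behind each line nor whether replicates came from separate cultures, so p-values reflect the spread among these 8 libraries, possibly technical spread alone.

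Amino acid transporters move amino acids and related solutes across the cell surface and the lysosomal membrane. Several SLC7 proteins are light chains that reach the cell surface only when joined by a disulfide bond to an SLC3 heavy chain. SLC3A2 (CD98, 4F2hc) with SLC7A5 forms LAT1, which exchanges glutamine for leucine and other large neutral amino acids, and SLC3A2 with SLC7A11 forms system xc-, which takes up cystine in exchange for glutamate and so feeds glutathione synthesis. SLC6A14 is a sodium- and chloride-driven concentrating transporter for neutral and cationic amino acids that has been linked to estrogen receptor positive breast cancer.

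The windows around the annotated start of 3 of these genes are shown because they stand for the largest fall, the highest level and a moderate rise among the members. They are RefSeq sequences of build GRCh38.p14, 250 bases before to 50 after the start, written 5′ to 3′ on the gene's strand. SLC6A14 lies at chrX:116436356-116436655 on the plus strand, SLC7A5 at chr16:87869458-87869757 on the minus strand and SLC6A9 at chr1:44031413-44031712 on the minus strand. Capitals mark matches to any of the motifs described after the sequences.
SLC6A14: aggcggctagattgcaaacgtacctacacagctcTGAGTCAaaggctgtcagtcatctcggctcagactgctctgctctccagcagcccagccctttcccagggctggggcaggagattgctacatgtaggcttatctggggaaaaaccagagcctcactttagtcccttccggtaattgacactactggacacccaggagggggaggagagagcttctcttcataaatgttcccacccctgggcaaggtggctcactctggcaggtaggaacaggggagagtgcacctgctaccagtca
SLC7A5: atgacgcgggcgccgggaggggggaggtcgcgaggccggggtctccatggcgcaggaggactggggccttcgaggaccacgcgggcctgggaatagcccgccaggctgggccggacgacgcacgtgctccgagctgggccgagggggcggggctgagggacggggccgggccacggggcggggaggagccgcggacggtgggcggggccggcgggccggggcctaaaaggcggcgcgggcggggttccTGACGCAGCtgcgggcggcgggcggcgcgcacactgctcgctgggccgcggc
SLC6A9: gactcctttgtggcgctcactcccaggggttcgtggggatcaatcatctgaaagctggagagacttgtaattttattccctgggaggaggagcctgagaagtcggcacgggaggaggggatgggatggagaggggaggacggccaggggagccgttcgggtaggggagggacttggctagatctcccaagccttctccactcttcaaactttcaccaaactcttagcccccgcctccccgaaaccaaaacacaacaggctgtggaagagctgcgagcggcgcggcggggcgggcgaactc

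The motifs searched, 4 in all, were sought on both strands. They were the amino acid response element TGATGNAA bound by ATF4 with C/EBP proteins, the antioxidant response element TGACNNNGC bound by NRF2, the full palindromic estrogen response element, and the AP-1 site TGANTCA, which can overlap the antioxidant element. The SLC6A14 window held an AP-1 match starting 216 bases before the start, the SLC7A5 window held an antioxidant match starting 2 bases before the start, and the SLC6A9 window held none of the 4. Windows were found for 26 of the 33 members, 47 windows in all since several genes have more than 1 start. None was found for SLC7A11, SLC6A6, SLC7A2 and SLC1A2, all called as changed below. The amino acid element was found in 6 of the 47 windows, or 12.8%, against 3.62% of all 35116 windows, the antioxidant element in 11, or 23.4%, against 13.3%, and the AP-1 site in 10, or 21.3%, against 7.71%. The estrogen element was found in 0 of the 47 windows and in 0.057% of all windows. By call, the amino acid element was in 1 of 13 windows of genes higher in shSRC1, 0 of 5 lower and 5 of 29 not called. The antioxidant element was in 2, 0 and 9 of these windows, and the AP-1 site in 2, 3 and 5. These are counts of windows and not of genes, since windows of 1 gene can overlap. The 5 lower windows belong to SLC6A14, with 1, and SLC7A8, with 4. Their AP-1 matches were in the SLC6A14 window and in SLC7A8 windows 1 and 3. Both SLC7A8 matches read TGATTCA, and whether they are 1 site was not tested. GC content was 55.7% in the SLC6A14 window, 80.3% in SLC7A5 and 60.0% in SLC6A9. These are matches of letters and say nothing about binding.

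NCOA1 itself served as the check of the labels. Its values were 1927, 1895, 2215 and 2107 normalized reads (reads divided by the library's size factor) in shSRC1 replicates 1 to 4, against 4381, 4212, 4467 and 4525 in shNT replicates 1 to 4. The groups were far apart, with a log2 fold change of -1.11 (limma, SE 0.08, adjusted p = 2.25e-07), where p-values were adjusted over all tested genes by the Benjamini-Hochberg method. The libraries held 33771775 to 66248960 reads assigned to genes in shSRC1 and 58459196 to 67022036 in shNT, with the lowest depth in shSRC1 replicate 2. shNT replicate 3 stood apart from the other shNT libraries, with a chi-square per gene of 41.9 to 86.8 against each of them, where they differed among themselves by 7.72 to 26.4. Without it, 7 members were higher and 4 lower, as against 9 and 4 with all libraries. Within shSRC1, replicate 1 differed from the other libraries by a chi-square per gene of 25.2 to 45.7, and those among themselves by 6.50 to 25.1. Without shSRC1 replicate 1, 7 members were again higher and 4 lower. Libraries differed in how their values followed GC content, with Spearman's rho across 18927 genes between -0.22 and 0.48 in shSRC1 and between -0.22 and 0.18 in shNT, although genes are not independent replicates. All 8 luminal breast markers examined, ESR1, GATA3, FOXA1, KRT8, KRT18, KRT19, EPCAM and CDH1, were abundant, and their summed level was 513800 to 583300 normalized reads in shSRC1 and 340000 to 416500 in shNT, with KRT8, KRT18 and KRT19 higher in shSRC1; the part of these differences in the members' values was not tested. Summed levels of 8 fibroblast markers were 1452 to 1978 in shSRC1 and 1634 to 2189 in shNT, those of 8 leukocyte markers were 71.2 to 169.5 in shSRC1 and 67.7 to 169.0 in shNT, and those of 5 endothelial markers were 221.7 to 288.6 in shSRC1 and 232.3 to 277.5 in shNT. COL1A1 and VWF supplied most of the fibroblast and endothelial sums. PECAM1 was at 0 reads in every library, and CD3E, TEK, PDGFRA and THY1 did not exceed 3.71 normalized reads in any. Other markers had more, with highest values of 92.56 for HLA-DRA, 89.13 for COL3A1, 51.99 for LYZ, 28.41 for DCN and 21.35 for LUM. In both groups HLA-DRA, LYZ, DCN and LUM were higher in replicates 3 and 4 than in replicate 1, and the cause was not tested. COL1A1, COL3A1, PDGFRB, CD14 and VWF did not follow this order in both groups. None of the marker genes of other cell types that entered the test passed it. Among the endothelial markers below the filter, KDR had 68 reads in the shSRC1 libraries together and 16 in the shNT libraries, and CDH5 had 7 in shSRC1 and 30 in shNT. In bulk RNA, fewer cells of a type and less RNA per cell cannot be told apart.

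Among the 33 members, 9 were higher in shSRC1, 4 were lower and 20 did not pass an adjusted p of 0.05 in limma. Over all tested genes 23.2% were called, 12.0% higher and 11.2% lower, while 39.4% of the members were called, 27.3% higher and 12.1% lower. The groups did not overlap in 14 members, 9 higher and 5 lower in shSRC1, where 29.0% of all tested genes had groups that did not overlap, 16.9% higher and 12.1% lower. The median log2 fold change was -0.03 over the members and -0.002 over all tested genes, and the median absolute log2 fold change was 0.28 and 0.24. At least 1 on the log2 scale was reached by 3 called members, SLC6A14, SLC7A11 and SLC1A3, and by 3.54% of all tested genes. The falls were in the concentrating transporter SLC6A14, the cystine transporter SLC7A11, the taurine transporter SLC6A6 and the LAT2 light chain SLC7A8. The rises were in the 3 glutamate transporters SLC1A1, SLC1A2 and SLC1A3, the cationic amino acid transporter SLC7A2, the leucine-carrying SLC43A1 and SLC43A2, the creatine transporter SLC6A8, the glycine transporter SLC6A9 and the glutamine transporter SLC38A7. Members and lists were chosen with earlier results of these data known, so these counts describe the family and support nothing further.

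**Figure D1:**
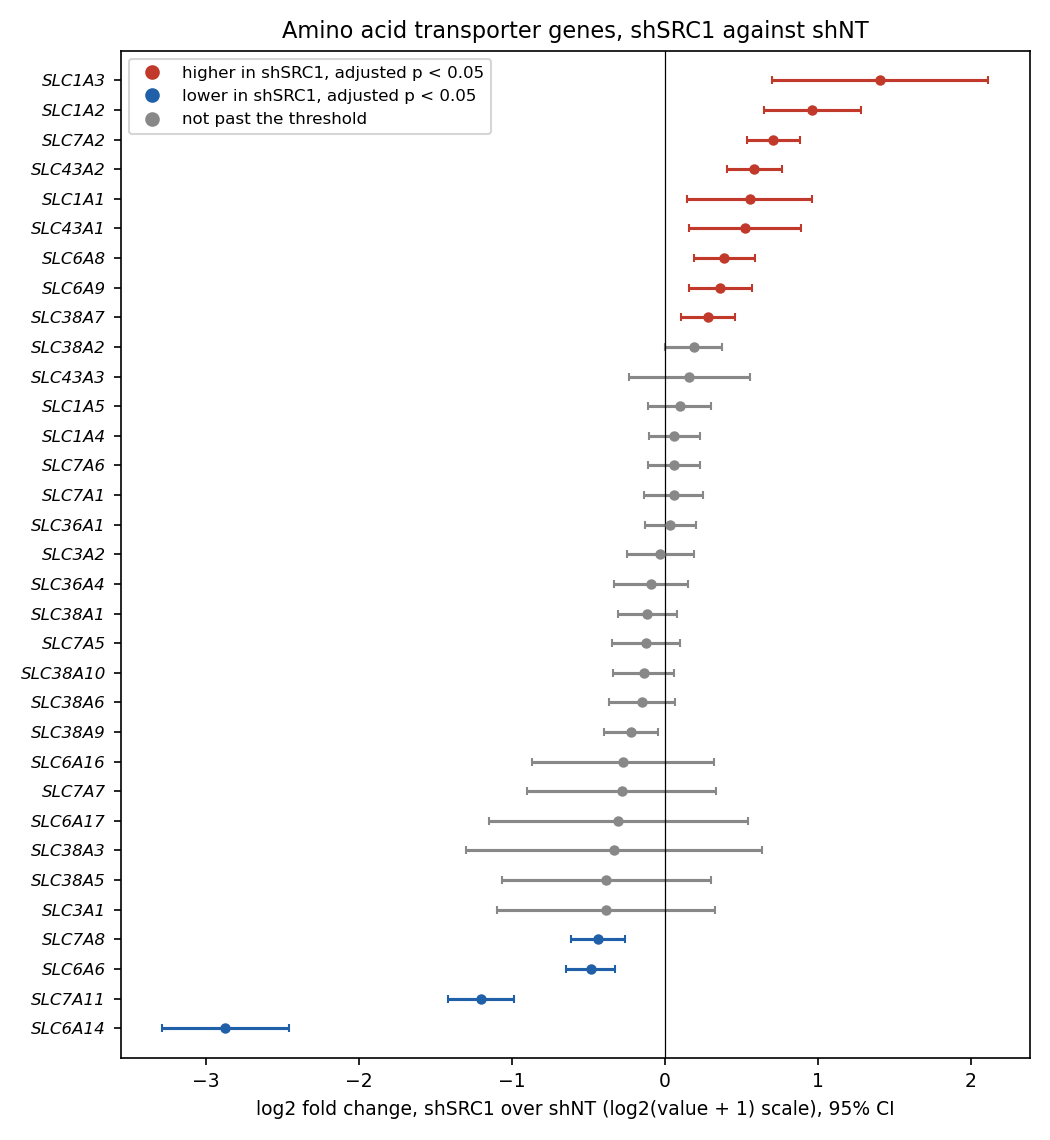
Log2 fold change of each of the 33 members, shSRC1 over shNT on the log2(value + 1) scale, with 95% confidence intervals from limma, ordered by size from SLC1A3 at the top to SLC6A14 at the bottom. The 9 red genes were higher and the 4 blue genes lower in shSRC1 at an adjusted p of 0.05, and SLC6A14 at -2.87 lies far from the rest.

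SLC6A14 had the largest change of the family. Its values were 19.9, 26.2, 18.2 and 20.2 normalized reads in shSRC1 replicates 1 to 4, against 151.3, 145.7, 189.4 and 156.1 in shNT replicates 1 to 4. The highest shSRC1 library was far below the lowest shNT library. The mean was 21.1 ± 3.5 in shSRC1 and 160.6 ± 19.6 in shNT (SD, n = 4 each), a ratio of means of 0.132. The log2 fold change was -2.87 (95% confidence interval -3.29 to -2.46, SE 0.19, limma adjusted p = 1.45e-07), on 78 reads in all shSRC1 libraries together and 705 in the shNT libraries. The exact two-sided permutation test gave p = 0.0286, the lowest value possible with 4 libraries a group, as it did for each of the 13 called members. SLC6A14 was nevertheless a low gene in both groups, at 4.67 ± 0.78 normalized reads per kb of annotated exon in shSRC1 and 35.5 ± 4.3 in shNT. It lies on chromosome X, where the 20 nearest tested protein-coding genes had a median log2 fold change of 0.05.

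SLC7A11, the light chain of system xc-, was the other large fall. Its values were 3363, 3121, 3938 and 3811 normalized reads in shSRC1 replicates 1 to 4, against 7156, 7674, 9017 and 8939 in shNT replicates 1 to 4. All shSRC1 libraries lay below all shNT libraries. The mean was 3558 ± 382 in shSRC1 and 8196 ± 928 in shNT (SD, n = 4 each), a ratio of 0.434, with a log2 fold change of -1.20 (95% confidence interval -1.42 to -0.99, SE 0.10, limma adjusted p = 1.28e-06). The antisense transcript SLC7A11-AS1 stood at 17.9 ± 6.4 normalized reads in shSRC1 and 39.9 ± 8.6 in shNT, a log2 fold change of -1.16 (limma, SE 0.32, adjusted p = 0.0166). Whether reads were counted by strand is not given in the sources used here, so reads from the gene and its antisense partner cannot be told apart, although those assigned to the antisense were few beside those of SLC7A11. The 20 neighbouring genes on chromosome 4 had a median log2 fold change of -0.12.

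SLC7A5, the LAT1 light chain, did not pass the test. Its values were 203498, 171909, 165678 and 157832 normalized reads in shSRC1 replicates 1 to 4, against 211574, 189152, 176864 and 181561 in shNT replicates 1 to 4. The groups overlapped, with replicate 1 the highest library in each. The mean was 174730 ± 20025 in shSRC1 and 189788 ± 15381 in shNT (SD, n = 4 each), and the log2 fold change of -0.12 (limma, SE 0.11, adjusted p = 0.412) had a 95% confidence interval of -0.35 to 0.10, so falls of up to 0.35 on the log2 scale lie within it. SLC7A5 supplied 46.9% ± 2.0 of all normalized reads of the 33 members in shSRC1 and 48.3% ± 1.4 in shNT (SD, n = 4 each; exact two-sided permutation test p = 0.286). SLC7A5P1, a pseudogene copy that can share reads with it, stood at 99.7 ± 7.5 normalized reads in shSRC1 and 89.5 ± 7.2 in shNT and did not pass the test either (limma adjusted p = 0.487).

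SLC3A2, the heavy chain that both SLC7A5 and SLC7A11 need, also did not pass. Its values were 57417, 50000, 50098 and 48005 normalized reads in shSRC1 replicates 1 to 4, against 55881, 56887, 43610 and 54017 in shNT replicates 1 to 4. The lowest library of all was shNT replicate 3, so the groups overlapped. The log2 fold change was -0.03 (95% confidence interval -0.25 to 0.19, SE 0.10, limma adjusted p = 0.859). Per kb of annotated exon, the level of SLC7A5 was 3.70 ± 0.13 times that of SLC3A2 in shSRC1 and 3.96 ± 0.38 times in shNT (SD, n = 4 each; exact two-sided permutation test p = 0.286). The other heavy chain, SLC3A1, the partner of the renal cystine transporter SLC7A9, was near the filter with 8.18 to 12.2 normalized reads in shSRC1 and 12.1 to 16.0 in shNT (log2 fold change -0.39, limma adjusted p = 0.418), and SLC7A9 itself failed the filter.

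**Figure D2:**
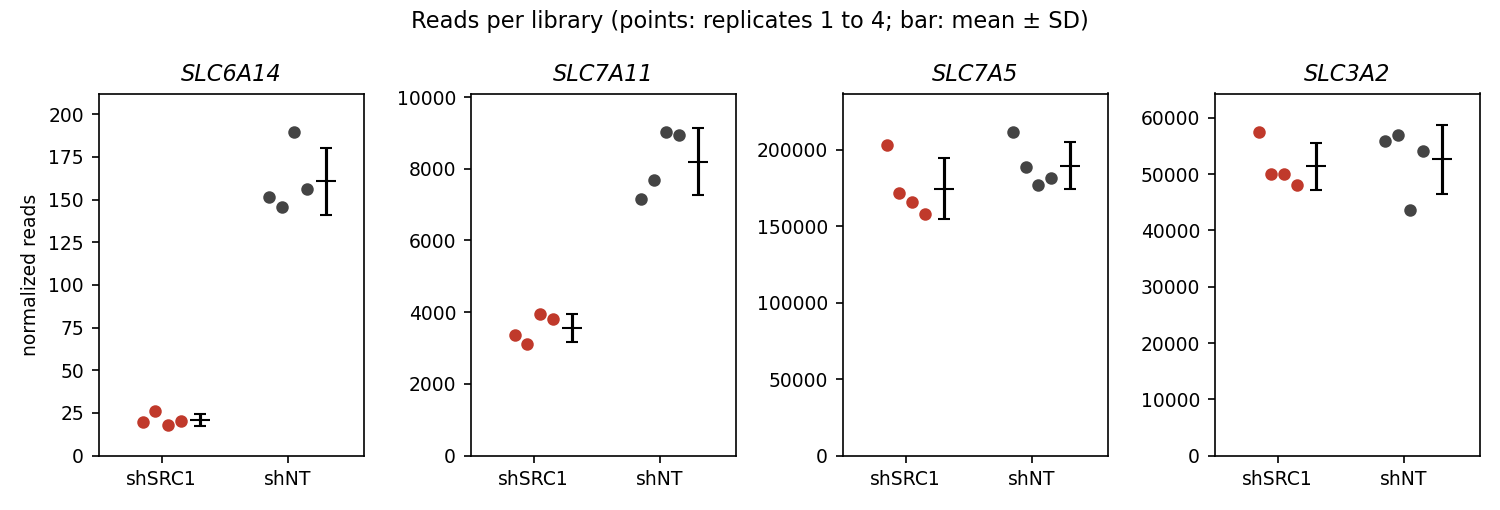
Normalized reads of SLC6A14, SLC7A11, SLC7A5 and SLC3A2 in each library, with shSRC1 on the left and shNT on the right of each panel, points for replicates 1 to 4 and a bar for the mean ± SD. The groups are apart for SLC6A14 and SLC7A11 and overlap for SLC7A5 and SLC3A2.

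Of the remaining SLC7 light chains that were tested, SLC7A8 passed and SLC7A6 and SLC7A7 did not. SLC7A8, the light chain of LAT2, a transporter of large and small neutral amino acids, fell, with values of 1417 to 1667 normalized reads in shSRC1 against 1914 to 2123 in shNT. Its log2 fold change was -0.44 (limma, SE 0.08, adjusted p = 0.0020). SLC7A6, a light chain of system y+L that exchanges cationic for neutral amino acids, had 2309 ± 134 normalized reads in shSRC1 and 2212 ± 117 in shNT (log2 fold change 0.06, limma adjusted p = 0.596), and its overlapping gene SLC7A6OS gave an adjusted p of 0.704. SLC7A7, the other y+L light chain, was low, at 15.8 to 31.8 normalized reads in shSRC1 and 21.5 to 36.2 in shNT (log2 fold change -0.28, limma adjusted p = 0.497).

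Of the 2 tested SLC7 members that carry arginine, lysine and ornithine without a heavy chain, SLC7A2 rose and SLC7A1 did not pass. SLC6A14, with the large fall given above, also carries cationic amino acids. SLC7A2 had 7258, 7184, 8262 and 8293 normalized reads in shSRC1 replicates 1 to 4, against 4583, 4662, 4637 and 5034 in shNT replicates 1 to 4. Its shSRC1 libraries all lay above its shNT libraries, and the log2 fold change was 0.71 (95% confidence interval 0.54 to 0.88, SE 0.08, limma adjusted p = 2.90e-05). SLC7A1, the widely expressed form, had 24252 ± 2336 normalized reads in shSRC1 and 23251 ± 1456 in shNT (SD, n = 4 each), a log2 fold change of 0.06 (95% confidence interval -0.13 to 0.25, limma adjusted p = 0.665). Per kb of annotated exon SLC7A2 stood at 980.3 ± 77.3 in shSRC1 and 598.2 ± 26.0 in shNT, below SLC7A1 at 3153 ± 304 in shSRC1 and 3023 ± 189 in shNT.

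The 3 high-affinity glutamate and aspartate transporters of the SLC1 family that passed the filter were all higher in shSRC1. SLC1A2 (EAAT2), the main glial glutamate transporter of the brain, had 205.1, 251.9, 205.4 and 262.1 normalized reads in shSRC1 replicates 1 to 4, against 101.1, 138.6, 111.4 and 121.1 in shNT replicates 1 to 4. The groups did not overlap, and the log2 fold change was 0.96 (limma, SE 0.15, adjusted p = 4.38e-04). SLC1A3 (EAAT1) had 16.1, 29.7, 32.7 and 24.7 in shSRC1 against 10.2, 9.77, 8.36 and 7.18 in shNT, a log2 fold change of 1.41 (limma, SE 0.33, adjusted p = 0.0080) on 97 reads in the shSRC1 libraries together and 39 in the shNT libraries. SLC1A3 reached a value of 10 in 4 shSRC1 libraries and in 1 shNT library, so it entered the test largely through the group in which it is high. SLC1A1 (EAAT3), the epithelial and neuronal form, had 70.6 to 87.5 in shSRC1 against 43.1 to 64.0 in shNT, a log2 fold change of 0.55 (SE 0.19) whose limma adjusted p of 0.0499 passed by a small margin. Its call was lost in 12 of 19 alternative settings, among them every left-out library except shNT replicate 2, with adjusted p between 0.0316 and 0.165 over all 19. All 3 were low genes, at 4.12 to 19.0 normalized reads per kb in shSRC1 and 1.42 to 13.0 in shNT.

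The neutral amino acid exchangers of the same family did not pass. SLC1A5 (ASCT2), which brings in glutamine, had 32136, 26551, 26366 and 25947 normalized reads in shSRC1 replicates 1 to 4, against 28600, 25906, 23378 and 25799 in shNT replicates 1 to 4. Replicate 1 was again the highest in each group, and the log2 fold change was 0.10 (95% confidence interval -0.11 to 0.30, SE 0.10, limma adjusted p = 0.482). SLC1A4 (ASCT1), which carries serine, alanine and cysteine, had 3140 ± 220 in shSRC1 and 3004 ± 129 in shNT (log2 fold change 0.06, limma adjusted p = 0.591).

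Among the other SLC6 members, 3 changed, in both directions. SLC6A6, the taurine transporter, had 13584, 13246, 12717 and 12815 normalized reads in shSRC1 replicates 1 to 4, against 18876, 18621, 18035 and 17794 in shNT replicates 1 to 4. The groups were well apart relative to their spread, with means of 13090 ± 401 in shSRC1 and 18331 ± 502 in shNT (SD, n = 4 each) and a log2 fold change of -0.49 (limma, SE 0.07, adjusted p = 4.33e-04). SLC6A8, the creatine transporter, had 1681 to 2081 in shSRC1 against 1289 to 1537 in shNT, a log2 fold change of 0.39 (limma, SE 0.09, adjusted p = 0.0090). SLC6A10P, a pseudogene copy of SLC6A8, moved the other way, with 288.1 ± 31.2 in shSRC1 and 491.9 ± 108.8 in shNT (log2 fold change -0.75, limma adjusted p = 0.0027). The 2 sequences can share reads, so the separate values of SLC6A8 and its copy are uncertain. SLC6A9 (GlyT1), the glycine transporter, had 1398, 1165, 1140 and 1086 in shSRC1 against 990.1, 895.6, 948.8 and 874.7 in shNT, a log2 fold change of 0.36 (limma, SE 0.10, adjusted p = 0.0144). Its 20 neighbours on chromosome 1 had a median of 0.22, and 17 of them had a positive fold change. The orphan SLC6A16 and the synaptic vesicle transporter SLC6A17 were low and did not pass (limma adjusted p = 0.496 and 0.602). SLC6A16 had 20.2 to 38.5 normalized reads in shSRC1 and 30.2 to 52.9 in shNT, and SLC6A17 had 7.33 to 21.0 in shSRC1 and 9.77 to 27.9 in shNT.

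The SLC43 family holds facilitated carriers of large neutral amino acids. SLC43A2 (LAT4) had 3141, 2812, 2738 and 2719 normalized reads in shSRC1 replicates 1 to 4, against 2125, 1879, 1825 and 1776 in shNT replicates 1 to 4. The groups did not overlap, and the log2 fold change was 0.59 (limma, SE 0.09, adjusted p = 2.79e-04). On chromosome 17, 18 of its 20 neighbours had a positive fold change, with a median of 0.31, and the part of this neighbourhood in the rise was not tested. SLC43A1 (LAT3) had 72.7 to 84.3 in shSRC1 against 50.1 to 55.7 in shNT, a log2 fold change of 0.52 (limma, SE 0.17, adjusted p = 0.0402). The SLC43A1 call was lost without any single library, with adjusted p between 0.0564 and 0.0999. In all it was lost in 11 of 19 alternative settings, with adjusted p between 0.0315 and 0.127 over the 19. SLC43A3, whose product carries purine nucleobases rather than amino acids, had 102.0 ± 18.4 in shSRC1 and 91.1 ± 16.5 in shNT (log2 fold change 0.16, limma adjusted p = 0.552).

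Sodium-coupled neutral amino acid transporters of the SLC38 family mostly did not pass. SLC38A1 (SNAT1), which concentrates glutamine and alanine, had 28285, 28223, 32866 and 33440 normalized reads in shSRC1 replicates 1 to 4, against 30764, 32849, 34270 and 34810 in shNT replicates 1 to 4. The groups overlapped, and the log2 fold change was -0.11 (95% confidence interval -0.31 to 0.08, SE 0.09, limma adjusted p = 0.370). SLC38A2 (SNAT2), the form known to be induced by amino acid shortage, had 11351, 13029, 14283 and 14431 in shSRC1 against 11152, 11677, 11791 and 11794 in shNT. Only shSRC1 replicate 1 fell within the range of the shNT libraries. The log2 fold change of SLC38A2 was 0.19 (limma, SE 0.09, adjusted p = 0.135), and it passed without shSRC1 replicate 1 (log2 fold change 0.26, adjusted p = 0.0361) and after a correction of every library for GC content and transcript length (log2 fold change 0.33, adjusted p = 0.0019). Over all 19 alternatives the adjusted p of SLC38A2 lay between 0.0019 and 0.307.

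SLC38A7 (SNAT7), a glutamine exporter of the lysosome, was the single SLC38 member called higher, with 1139 to 1264 normalized reads in shSRC1 against 917.0 to 1030 in shNT (log2 fold change 0.28, SE 0.08, limma adjusted p = 0.0253). Its call was lost in 6 of 19 alternative settings. Among them were fits without shSRC1 replicates 1 or 3 or without shNT replicates 1, 2 or 4, with adjusted p between 0.0525 and 0.0648. Over all 19 the adjusted p of SLC38A7 lay between 0.0116 and 0.0886. SLC38A9, the lysosomal arginine sensor that signals to mTORC1, had 823.1 to 933.8 in shSRC1 against 987.7 to 1052 in shNT. Its groups did not overlap, but its log2 fold change of -0.22 (SE 0.08) missed the threshold (limma adjusted p = 0.0682), which it passed in edgeR's quasi-likelihood test on recovered reads (adjusted p = 0.0498). After the correction for GC content and transcript length, the log2 fold change of SLC38A9 was -0.05 (limma adjusted p = 0.700). Its adjusted p lay between 0.0452 and 0.700 over all 19 alternatives. SLC38A6 and SLC38A10 had log2 fold changes of -0.15 and -0.14 (limma adjusted p = 0.284 and 0.288). The system N transporters SLC38A3 and SLC38A5 were low and did not pass (limma adjusted p = 0.617 and 0.400). SLC38A3 had 4.75 to 29.7 normalized reads in shSRC1 and 16.7 to 30.5 in shNT, and SLC38A5 had 10.0 to 13.8 in shSRC1 and 12.6 to 20.4 in shNT.

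The transporters of the SLC36 family that passed the filter stood at similar values in the groups. SLC36A1 (PAT1), which moves small amino acids out of lysosomes, had 2134 ± 148 normalized reads in shSRC1 and 2077 ± 36 in shNT (log2 fold change 0.04, 95% confidence interval -0.13 to 0.20, limma adjusted p = 0.764). SLC36A4 (PAT4) had 493.3 ± 67.6 in shSRC1 and 521.6 ± 26.3 in shNT (log2 fold change -0.09, 95% confidence interval -0.33 to 0.15, limma adjusted p = 0.587). These intervals exclude neither small rises nor small falls.

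**Figure D3:**
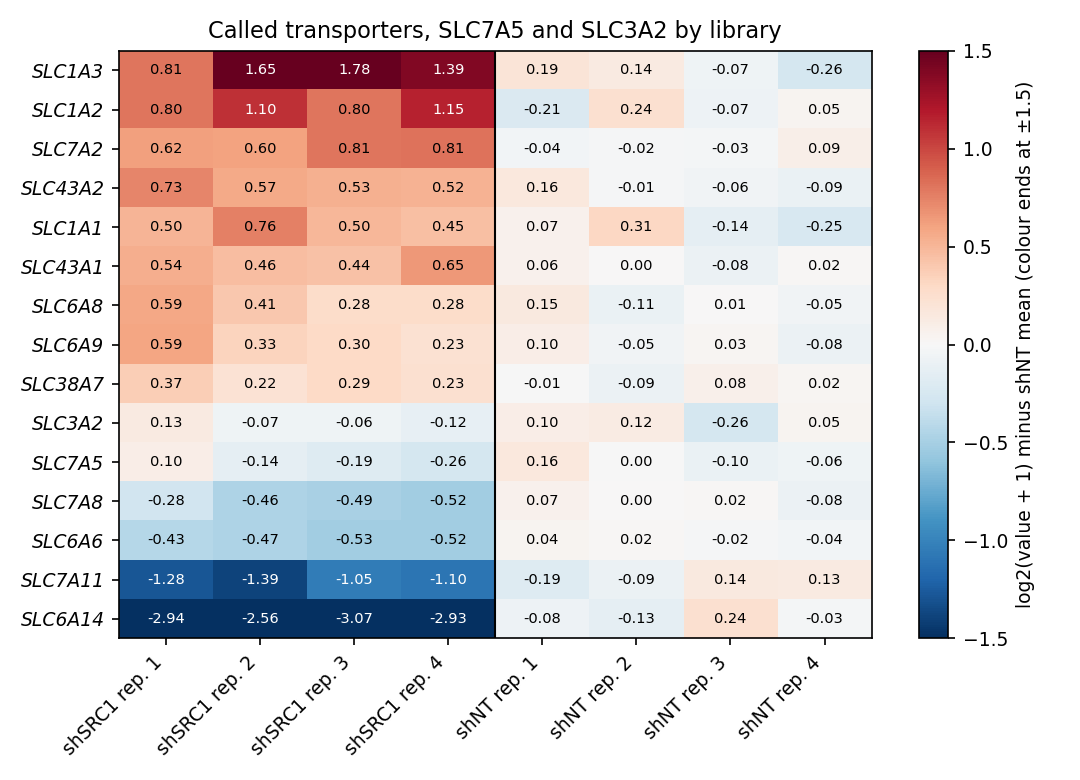
Log2(value + 1) of the 13 called members, SLC7A5 and SLC3A2 in each library, as the difference from the mean of the 4 shNT libraries, with shSRC1 libraries in the left columns and shNT libraries in the right columns. Red is higher and blue lower, the colour scale ends at ±1.5, and each called gene keeps the same sign in all 4 shSRC1 libraries while SLC7A5 and SLC3A2 have values of either sign.

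The order of levels, in normalized reads per kb of annotated exon, was led by genes that did not pass the test. SLC7A5 stood at 36824 ± 4220 in shSRC1 and 39997 ± 3242 in shNT, followed by SLC3A2 at 9923 ± 799 in shSRC1 and 10158 ± 1180 in shNT and SLC1A5 at 8328 ± 881 in shSRC1 and 7779 ± 640 in shNT (SD, n = 4 each). SLC38A1 at 3066 ± 283 in shSRC1 and 3312 ± 180 in shNT and SLC7A1, at the levels given above, came next, and their ± SD ranges overlapped in each group. Of the called members SLC6A6 was the highest, at 1586 ± 49 in shSRC1 and 2221 ± 61 in shNT. SLC7A11 stood at 368.9 ± 39.6 in shSRC1 and 849.8 ± 96.2 in shNT, and SLC7A2 at 980.3 ± 77.3 in shSRC1 and 598.2 ± 26.0 in shNT, so the order of these 2 genes was opposite in the groups. Together the 33 members took 0.616% ± 0.036 of all normalized reads in shSRC1 and 0.676% ± 0.025 in shNT (SD, n = 4 each; exact two-sided permutation test p = 0.0857). Exon lengths come from an annotation of another genome build than that of the table, so these levels are approximate.

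**Figure D4:**
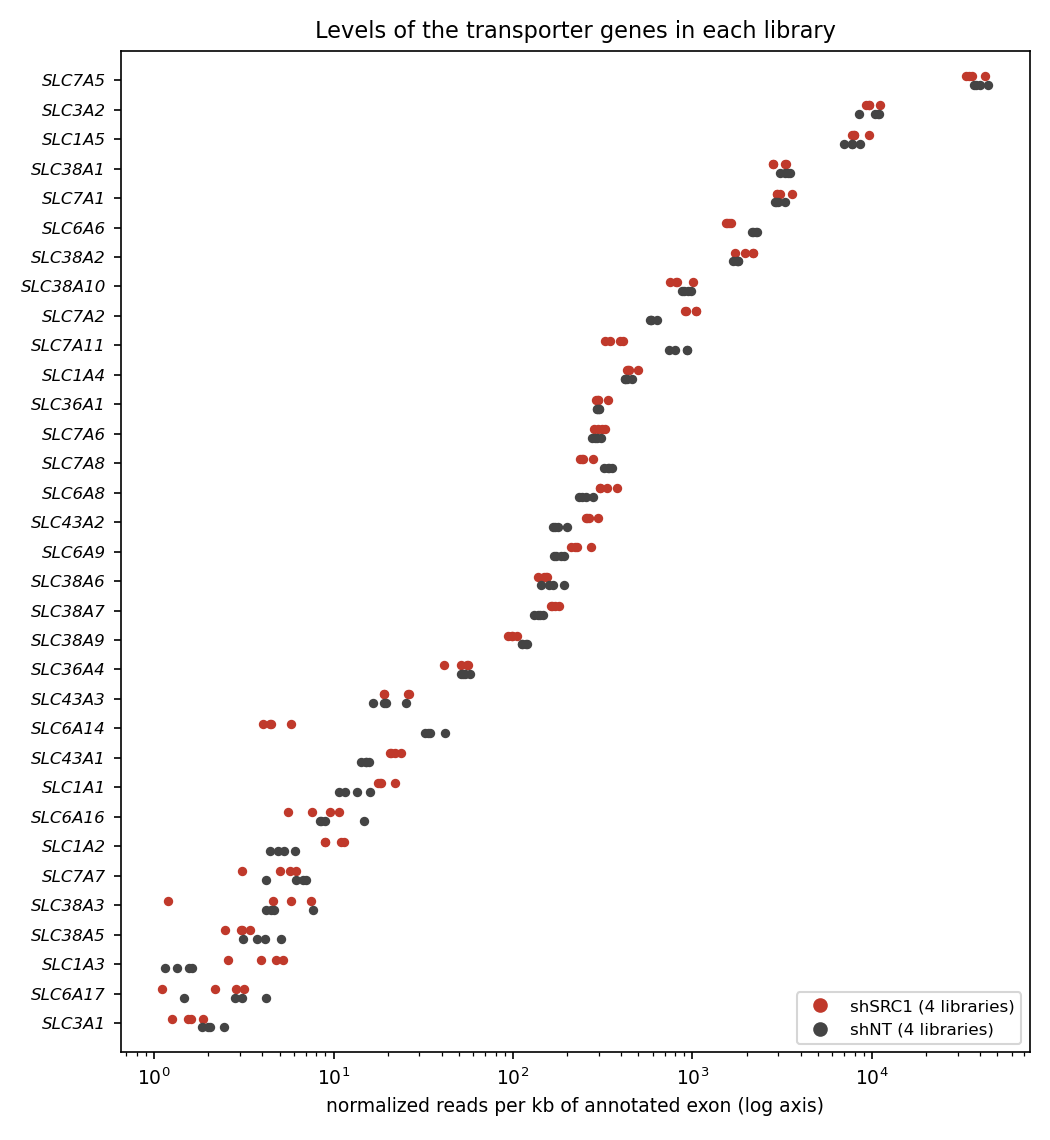
Level of each of the 33 members in each library, in normalized reads per kb of annotated exon on a log axis, with shSRC1 libraries drawn above shNT libraries in each row. SLC7A5, SLC3A2 and SLC1A5 lead in both groups, and the rows of SLC6A14, SLC7A11, SLC7A2 and SLC6A6 show groups that are apart.

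The other 27 rows of the 7 families did not reach the filter. No read was seen for 7 of them, among them a second SLC6A8 entry under another identifier. The other 20 had reads but no more than 17.5 normalized reads in any library. A value of 10 in at least 1 library was reached by 4, the betaine and GABA transporter SLC6A12 with at most 17.5, the serotonin transporter SLC6A4 with at most 12.1, SLC7A10 (Asc-1) with at most 14.0 and SLC7A13 with at most 11.4. A count of 0 or of few reads at this depth does not show that a gene is silent.

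Genes that work alongside the transporters were examined by lists. Of 20 genes of the amino acid response, which ATF4 drives when amino acids are short, 14 were higher in shSRC1, none was lower and 6 did not pass, with a median log2 fold change of 0.54 and 70% called, against 23.2% of all tested genes. Among the shNT libraries, replicate 3 was the lowest in 19 of these 20 genes, and without it 14 were again called higher, the same 14 genes. NUPR1, a stress-induced chromatin protein, had 417.8 ± 60.4 normalized reads in shSRC1 and 86.9 ± 23.8 in shNT (log2 fold change 2.28, SE 0.18, limma adjusted p = 8.94e-07). STC2, a secreted glycoprotein, DDIT4, an mTORC1 inhibitor, and PCK2, the mitochondrial phosphoenolpyruvate carboxykinase, rose by 1.22, 1.64 and 0.66 on the log2 scale. ATF4 itself had 10471 ± 225 normalized reads in shSRC1 and 9011 ± 1068 in shNT (log2 fold change 0.22, limma adjusted p = 0.0875). SLC7A11, SLC7A5, SLC3A2, SLC7A1 and SLC38A2 are also known as ATF4-responsive, and their log2 fold changes were -1.20, -0.12, -0.03, 0.06 and 0.19.

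Of 15 tested genes of cystine use and glutathione, 5 were lower, 1 was higher and 9 did not pass, with a median log2 fold change of -0.10 and 40% called, against 23.2% of all tested genes. TXNRD1, the cytosolic thioredoxin reductase, had 40387 ± 1475 normalized reads in shSRC1 and 67335 ± 5935 in shNT (log2 fold change -0.73, SE 0.09, limma adjusted p = 5.66e-05). GCLC, the catalytic subunit of the rate-limiting enzyme of glutathione synthesis, CD44, a surface glycoprotein known to stabilise the SLC7A11 protein, and NFE2L2, which encodes NRF2, were lower, with log2 fold changes of -0.41, -0.33 and -0.32. The gene that rose was GSS, glutathione synthetase (log2 fold change 0.35, limma adjusted p = 0.0222). Of the 5 falls, 3 were called without shSRC1 replicate 1, without shSRC1 replicate 2 and without shNT replicate 4, and GSS lost its call without shSRC1 replicate 1.

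Of 15 genes of glutamine, glutamate and aspartate use, 5 were higher, 2 were lower and 8 did not pass, with a median log2 fold change of 0.13 and 46.7% called, against 23.2% of all tested genes. ASNS also counts in the amino acid response list. PRODH, the mitochondrial proline dehydrogenase, had 186.6 ± 29.7 normalized reads in shSRC1 and 669.9 ± 18.8 in shNT (log2 fold change -1.85, SE 0.12, limma adjusted p = 1e-07). GPT2, the mitochondrial alanine aminotransferase, ASNS, asparagine synthetase, and GOT2, the mitochondrial aspartate aminotransferase, rose by 0.67, 0.53 and 0.34. The other fall was GPT, whose groups overlapped. It had 91.0 to 119.0 in shSRC1 and 117.5 to 225.6 in shNT (log2 fold change -0.64, limma adjusted p = 0.0294). Without shSRC1 replicate 2, shNT replicate 1 or shNT replicate 4, 3 of the 5 rises were still called. Without shSRC1 replicates 1, 2 or 4 or shNT replicates 1 or 3, 1 of the 2 falls was still called.

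Of 30 tested genes of mTORC1 amino acid sensing, 7 were higher, 1 was lower and 22 did not pass, with a median of 0.15 and 26.7% called, close to the 23.2% of all tested genes. SESN3 and SESN1, of the leucine-sensing sestrin family, rose by 0.57 and 0.43, RRAGA, a Rag GTPase, rose by 0.38, and MIOS, a subunit of GATOR2, fell by 0.37. Without shSRC1 replicates 1, 2, 3 or 4, 3 to 4 of these genes were called higher in place of 7, as were 4 without shNT replicate 1 and 4 with TMM scaling. Of 16 tested amino acid or peptide transporters outside the 7 families, 3 were higher, 2 were lower and 11 did not pass, so that 31.2% were called, against 23.2% of all tested genes. The peptide transporter SLC15A2 fell by 0.50, SLC15A3 fell by 1.03, the mitochondrial glycine carrier SLC25A38 rose by 0.35 and CTNS, the lysosomal cystine exporter, rose by 0.32. Of these 3 rises, 1 was called without shSRC1 replicate 1, shSRC1 replicate 2, shNT replicate 2 or shNT replicate 4, and 1 of the 2 falls was called without shSRC1 replicates 1 or 3 or shNT replicates 1 or 4.

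Of 10 genes chosen as MYC partners and regulators of transporters, 5 were higher, 1 was lower and 4 did not pass, so that 60% were called, against 23.2% of all tested genes. SGK1, a kinase that promotes the surface level of several transporters, had 143.3 ± 16.9 normalized reads in shSRC1 and 74.1 ± 8.6 in shNT (log2 fold change 0.94, SE 0.16, limma adjusted p = 0.0011). MAX, the MYC partner, and NEDD4L, a ubiquitin ligase, rose by 0.38 and 0.31, and MXD4, which competes with MYC for MAX, rose by 0.37. NEDD4 fell by 0.46 (limma adjusted p = 0.0353), a call lost without shSRC1 replicates 1, 2 or 4 or shNT replicate 4. MYC had 7705 ± 411 normalized reads in shSRC1 and 6914 ± 661 in shNT (log2 fold change 0.16, limma adjusted p = 0.190). Without shSRC1 replicate 1, 3 of these genes were called higher in place of 5.

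**Figure D5:**
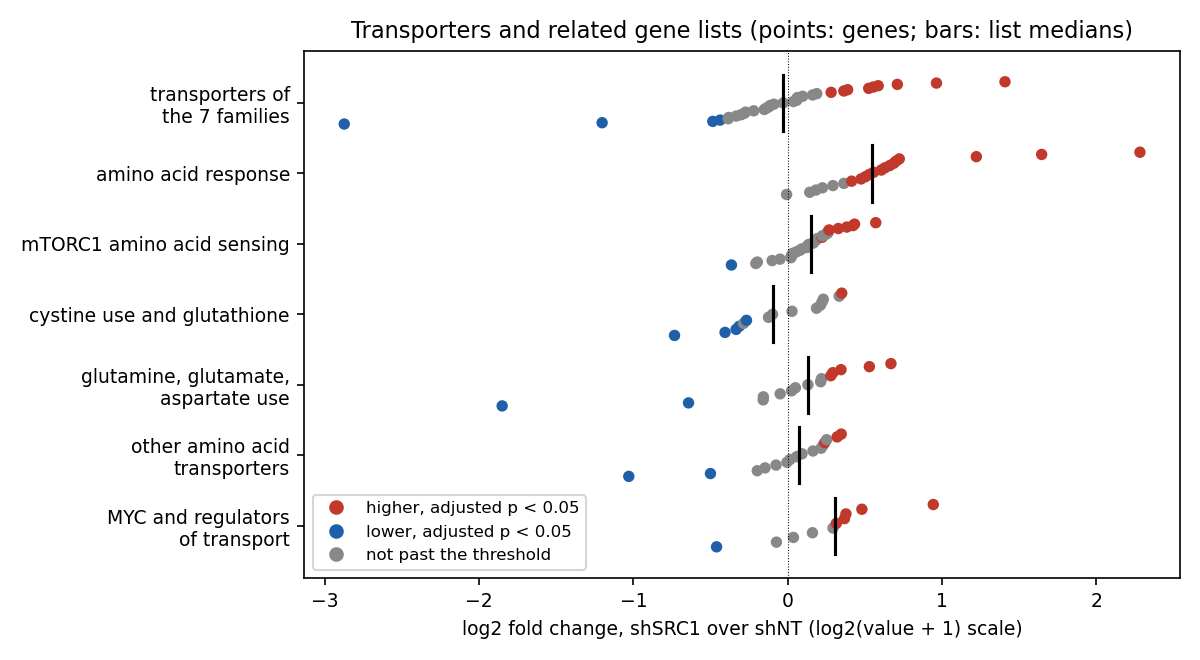
Log2 fold change of each tested gene, shSRC1 over shNT, for the 33 transporters and for 6 related gene lists, with a black bar at each list's median. The amino acid response list has its median at 0.54 with 14 genes called higher (red), while the transporters have theirs at -0.03 with genes called on both sides.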

How the data were processed

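RNA of 8 libraries, 4 shSRC1 and 4 shNT, was sequenced after oligo(dT) capture with a TruSeq RNA kit, per the labels' protocols, which do not call the kit stranded. The authors deposited 1 table of signal per gene, a read count divided by the library's size factor. TopHat2 2.0.12, HTSeq 0.6.1, DESeq2 and DESeq are named with GRCh37 per the submitters' processing notes, and the annotation and the options of counting are not stated there. Whole reads were recovered from the step of each column, with 100.0% of values whole within 0.001 reads. A count of 0 or up to 3 reads corresponds to at most 2.73 to 5.25 normalized reads in shSRC1 and 2.67 to 2.79 in shNT, which covers counting error only. No 2 libraries of a group agreed within sampling noise.

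Values were tested as log2(value + 1) with limma 3.58.1 (R 4.3.3, trended and robust empirical Bayes, two-sided), Benjamini-Hochberg adjusted over 19559 genes with at least 10 in at least 4 libraries, at 0.05 and without a replicate block. Fold changes on this scale understate those of low genes. The limma and edgeR fits were tested on simulated data with known fold changes. The simulation gave every gene the same dispersion and no GC effect, so it does not show how the fits perform on these libraries. The quasi-likelihood test of edgeR 4.0.16 on the recovered reads called 2321 genes higher and 2316 lower, against 2344 and 2194 in limma. Other alternatives were TMM and upper-quartile scaling, pseudocounts of 0.5 and 5, no filter and a minimum of 50, a replicate block, each library left out, 2 libraries left out together, and a correction of each library for transcript length and GC content (found for 96.8% of tested genes). Exon length and gene order came from GENCODE 29, a GRCh38 annotation, by identifier or, for 600 genes of the table including SLC6A14, by unique gene name. Members and lists were chosen with earlier results of these data known. Named genes were NCOA1, SLC6A14, SLC7A5, SLC7A11, the SLC3 heavy chains, all called members, the 6 highest members per kb that did not pass, and up to 4 called genes per list by smallest adjusted p; other genes were named after their values were seen.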

Additional observations from a re-analysis of the deposited data

Results flagged for a closer look

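In 66 groups of 4 libraries, 2 for each member, 3 held a library far from the other 3, and chance flags about 1 in 20 such groups. SLC1A1 in shSRC1 was highest in replicate 2, at 87.5 normalized reads against 70.6 to 73.1 in the others, a gap of 0.836 of the group's log2 range. SLC1A5 in shSRC1 was highest in replicate 1, at 32136 against 25947 to 26551, a gap of 0.892. SLC6A16 in shNT was highest in replicate 3, at 52.9 against 30.2 to 32.3, a gap of 0.882. Without these libraries the log2 fold changes were 0.49 for SLC1A1, whose call was lost (limma adjusted p = 0.125), 0.02 for SLC1A5 and -0.09 for SLC6A16.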

How the results depend on the processing

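Over 19 alternatives the members called higher in shSRC1 numbered 6 to 10 and those called lower 4 to 5, against 9 and 4 as reported. Leaving out 1 library at a time gave 6 to 7 members higher and 4 lower, 1648 to 2525 of all tested genes higher and 1450 to 2251 lower, with 1450 lower without shSRC1 replicate 2 against 2194 as reported; the cause was not tested, though that fit has fewer libraries. The log2 fold change lay between -2.98 and -2.67 for SLC6A14, -1.27 and -0.99 for SLC7A11 and -0.20 and -0.07 for SLC7A5. Of 13 called members, 10 kept their call in every alternative run that tested them, the exceptions being SLC1A1, SLC43A1 and SLC38A7; SLC6A14 and SLC1A3, among the low members, rest on few reads. Signs changed in members that did not pass in either setting, and the cause was not tested. Without shSRC1 replicate 1 the values were -0.0113 for SLC36A1, 0.0107 for SLC36A4, 0.1833 for SLC38A3 and -0.0074 for SLC7A1. Over all left-out libraries the ranges were -0.0113 to 0.0617 for SLC36A1, -0.1426 to 0.0107 for SLC36A4, -0.6232 to 0.1833 for SLC38A3, -0.0074 to 0.1003 for SLC7A1 and -0.1168 to 0.0110 for SLC3A2. With the length and GC correction, with or without the replicate block, they were -0.0022 for SLC36A1 and 0.1296 for SLC36A4. SLC3A2 had 0.0022 when shSRC1 replicate 4 was left out, 0.0024 when shNT replicate 1 was and 0.0110 when shNT replicate 2 was, and SLC7A7 had 0.0064 without shNT replicate 3 and shSRC1 replicate 2 together. Same-numbered libraries correlated at 0.24, -0.01, 0.13 and 0.14 in their deviations from the group means, and differently numbered ones at -0.21 to 0.13. The reported fit took no pairs, and whether same-numbered libraries share a batch was not tested. With the replicate block 9 members were higher and 5 lower, the added one being SLC38A9 (limma adjusted p = 0.0452), and 3290 of all tested genes were higher and 3108 lower.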
